A study of Mus musculus with 6 samples.

Results

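The genes described are 10 members of the BCL2 family of survival and death genes: the anti-apoptotic Bcl2, Bcl2l1 (BCL-xL), Bcl2l2 (BCL-w) and Mcl1, the pore-forming effector Bak1, and the BH3-only genes Bcl2l11 (BIM), Bid, Bad, Bik and Bmf. Their probes were found by name, through the transcript accession of each non-control probe, by a rule that uses no measured value. They were covered by 19 probes of 56605 on the array and are 10 of 23462 genes that could be named there. Of these, 9 genes with 16 probes passed the filter on dim signals, which kept a probe if every array of either group showed it well above background. Bik did not pass it. A value on all 6 arrays was present for 8 genes, since the only Mcl1 probe lost 1 array.

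The BCL2 family decides at the mitochondrial outer membrane whether a cell keeps its cytochrome c or releases it and dies. Anti-apoptotic members hold the pore-forming effectors BAX and BAK in check, and BH3-only members, named after the short helix they share, either block those guardians or engage the effectors directly. Microglia depend on CSF1 receptor signalling for survival, and in long-lived immune cells the balance of BCL2, BCL-xL, MCL1 and BIM is a common point at which such signals act. PGC-1α is a transcriptional coactivator of mitochondrial genes that works through partners such as the estrogen-related receptors. The question addressed here was whether transcripts of these survival and death genes differed between microglia with and without PGC-1α overexpression.

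Expression was measured on 6 arrays, 3 for PGC-1αf/f and 3 for mPGC-1α. All mice were male, aged 10 weeks and of C57BL/6 background, and microglia were taken from their brains by magnetic selection for the surface receptor P2RY12. PGC-1αf/f mice carry an inducible PGC-1α and eGFP construct with loxP sites, which stays silent without Cre, and mPGC-1α mice carry in addition a Cx3cr1-Cre/ER allele whose Cre becomes active with tamoxifen (TAM). Cx3cr1 is also used by macrophages and monocytes, so the driver alone is not exclusive to microglia, and the study left an interval after tamoxifen that was meant to limit overexpression to microglia. The Cre allele lies within the Cx3cr1 locus. The PGC-1αf/f littermates lacked Cre, so the Cre allele and the overexpression came together. Nothing in the labels says whether each array held RNA of 1 mouse or of several, so that p-values measure only the spread between these samples.

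Throughout, a level is the log2 signal minus the 75th percentile of its array, given for replicates 1, 2 and 3 in that order. A log2 fold change is mPGC-1α minus PGC-1αf/f from limma, and a call needed an adjusted p (Benjamini-Hochberg over all tested probes) under 0.05. Levels of different probes are not comparable, since each probe binds with its own strength.

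The arrays shared 1 slide, on which PGC-1αf/f filled slide row 1 and mPGC-1α slide row 2, and slide row and group cannot be told apart. Between 27025 and 30272 of 59305 spots per array were well above background and none was saturated. The array of PGC-1αf/f replicate 3 stood apart: its correlations with the others averaged 0.928, against 0.962 to 0.972 for the remaining 5. The targeted gene, Ppargc1a, had a level of 0.189, -0.442 and -1.214 in PGC-1αf/f and 0.572, 0.281 and 0.077 in mPGC-1α on its brighter probe, so the groups overlapped (log2 fold change 0.80, SE 0.35, adjusted p = 0.306 by limma). Whether this probe reads the transgene is not known from the files. Microglial markers were bright on all arrays, with a mean level of 3.88 to 4.09 in PGC-1αf/f and 3.73 to 3.92 in mPGC-1α, and of the 9 (of 15) with values on every array 1 was above 0 in fold change. Markers of blood leukocytes had a mean level of 0.517, 0.863 and -2.02 in PGC-1αf/f and 0.755, 1.05 and 1.28 in mPGC-1α. Of the 23 leukocyte markers, 17 were well above background on all arrays with a value on each, and these were all above 0 in fold change (median 1.11), while 2 were above background on no array. Oligodendrocyte markers had a mean level of -0.942, -0.677 and -0.214 in PGC-1αf/f and -1.23, -1.48 and -1.56 in mPGC-1α, so the groups did not overlap, and of the 9 (of 14) above background on all arrays 1 was above 0 in fold change (median -0.55). Endothelial and mural markers had -1.80, -1.89 and -3.18 in PGC-1αf/f and -2.25, -1.76 and -1.545 in mPGC-1α, with all 8 (of 13) that were above background on all arrays above 0 (median 0.63). Of the remaining 5, 2 were above background on no array, and Pecam1, above it on 2 PGC-1αf/f arrays and no mPGC-1α array, was dimmer on every mPGC-1α array. No marker of these 3 lists passed the threshold, and the part of these markers in the members' values was not tested. In such bulk samples fewer cells of a type and less RNA per cell cannot be told apart.

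No member was called. Among all 12302 genes with a value on every array, 8 were called, which is 0.065%. Of the 8 family members with such a value, 0 passed at the adjusted threshold and 0 at an unadjusted p under 0.05 by limma on the probe that stood for the gene, which was the brightest one. Over all genes the unadjusted share was 8.16% higher and 5.71% lower in mPGC-1α. The 8 members had a median log2 fold change of 0.13, with 5 above 0 and 3 below. Over all 12302 genes the median was 0.03, with 6650 above 0. The 3 mPGC-1α arrays lay wholly above the PGC-1αf/f arrays for 1 member, Bad, and wholly below for 1, Bcl2l11. Over all genes that happened for 12.2% in the higher and 10.8% in the lower direction, so the members' counts were close to the background. The confidence intervals below say how large a difference each probe could still hide.

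**Figure D1:**
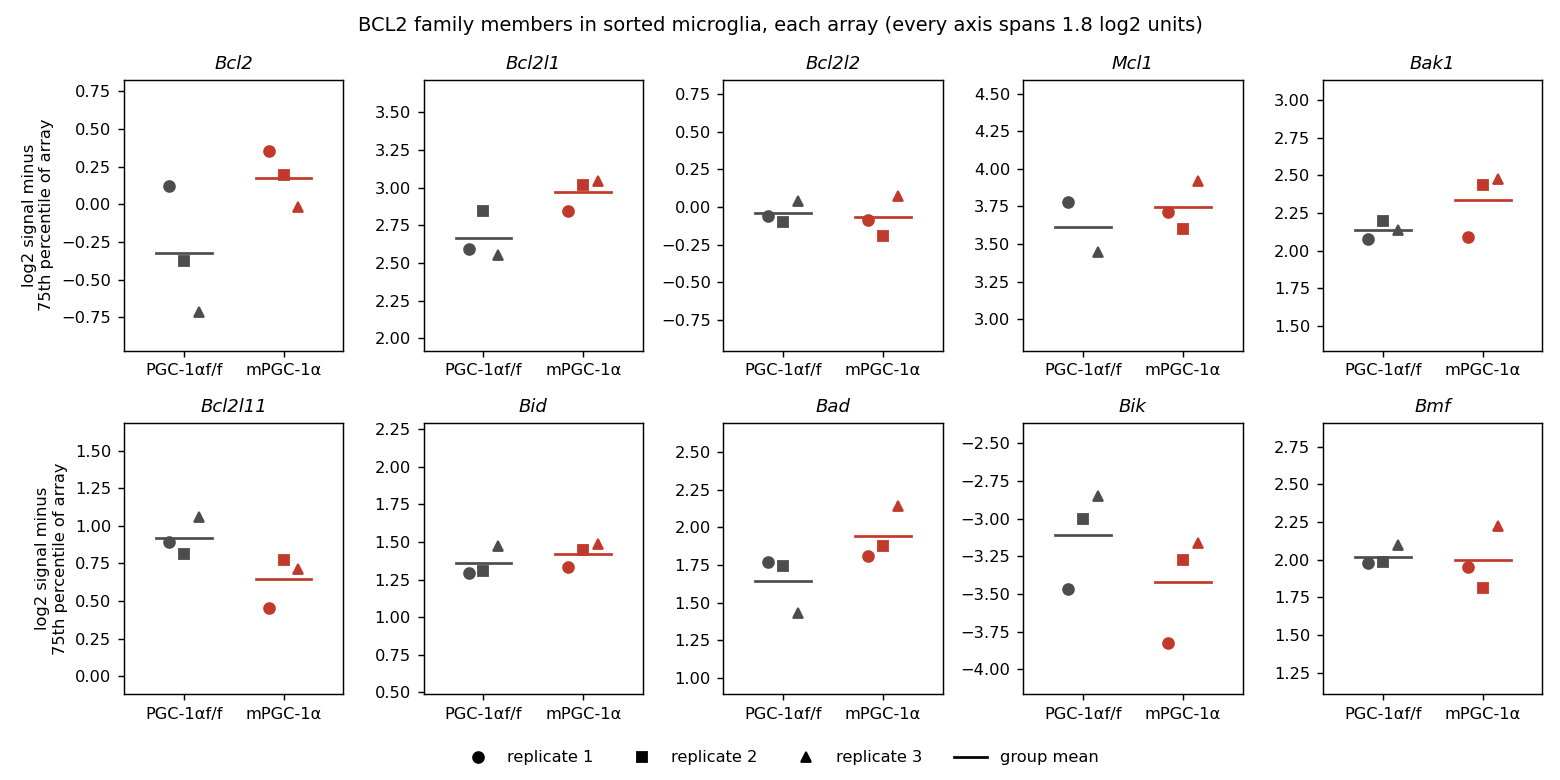
Level of each of the 10 members on each array, on the probe that stands for the gene (y axis, log2 signal relative to the 75th percentile; every axis spans the same range). Grey symbols are PGC-1αf/f and red symbols mPGC-1α, the symbol shape gives the replicate and the line the group mean. The groups separate for Bad and Bcl2l11, and PGC-1αf/f replicate 2 is missing for Mcl1.

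Before the values of single members, the DNA upstream of their transcription starts was searched for letters bound by factors with a known link to PGC-1α or to the family. The window was the 250 bases before each RefSeq start (GRCm38.p6), both strands, which gave 15 starts for 9 members, and Bik had none. The estrogen-related receptor half-site, AAGGTCA, lay in 1 of the 15 windows, beside 4.08% of all 32851 promoters. The FOXO site, GTAAACA, lay in 1 of 15, beside 3.17%. The cAMP response element, TGACGTCA, lay in 0 of 15, beside 1.55%. The 2 stretches with a match, of Bcl2l1 and Bcl2l11, are shown because no other window held one, and the capitals mark the match. The Bcl2l1 stretch (chr2:152828547-152828633, minus strand) lies upstream of a start inside the gene and carries the half-site in reverse, with its first base 104 bases before the start. The Bcl2l11 stretch (chr2:128125788-128125857, plus strand) has the FOXO letters 227 bases before the start.
Bcl2l1: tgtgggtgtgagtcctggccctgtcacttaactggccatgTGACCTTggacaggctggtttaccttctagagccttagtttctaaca
Bcl2l11: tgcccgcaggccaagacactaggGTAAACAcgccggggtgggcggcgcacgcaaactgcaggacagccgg
A match is a description of letters, and binding was not measured here.

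Bcl2, the founding anti-apoptotic member (chromosome 1, 106538176 to 106714290), had the highest log2 fold change of the 8, but its groups overlapped. Its brighter probe, designed on the transcript NM_009741, had a level of 0.121, -0.377 and -0.712 in PGC-1αf/f and 0.353, 0.198 and -0.017 in mPGC-1α. PGC-1αf/f replicate 1 was above mPGC-1α replicate 3, and PGC-1αf/f replicate 3, the array that stood apart, was the lowest of the 6. limma gave a log2 fold change of 0.50 (SE 0.23, 95% confidence interval -0.047 to 1.05, adjusted p = 0.328). The second probe, designed on NM_177410, had a level of -1.241, -1.25 and -0.861 in PGC-1αf/f and -0.865, -0.696 and -0.618 in mPGC-1α. Here only PGC-1αf/f replicate 3 reached into the mPGC-1α range, and it was the highest of its group where it had been the lowest on the first probe. The log2 fold change of 0.39 (SE 0.16, 95% confidence interval 0.010 to 0.77) had an unadjusted p of 0.0454 and an adjusted p of 0.292 by limma. Both probes thus had a positive estimate and neither passed the threshold. Without PGC-1αf/f replicate 3, on which leukocyte markers were also lowest, the estimate for the brighter probe was 0.306, and their part in the result was not tested. Bcl2 passed the threshold in 1 alternative, array weights fitted by REML, which did not converge (0.56, adjusted p = 0.0314 by limma).

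Bcl2l1, whose product BCL-xL guards the outer membrane alongside BCL2 (chromosome 2, 152758732 to 152833803), was read by 5 probes that fell into 2 patterns. The brightest, designed on NM_001289716, had a level of 2.593, 2.848 and 2.554 in PGC-1αf/f and 2.848, 3.015 and 3.046 in mPGC-1α. The highest PGC-1αf/f array and the lowest mPGC-1α array met at the same level. Its log2 fold change was 0.30 (SE 0.14, 95% confidence interval -0.033 to 0.64, adjusted p = 0.333 by limma).

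The other 4 Bcl2l1 probes varied between replicates rather than between groups. The brightest of them, A_51_P299454 on NM_009743, had a level of 0.212, 0.115 and -1.163 in PGC-1αf/f and 0.177, 0.564 and -1.234 in mPGC-1α. A second probe on the same transcript, A_52_P510877, had -0.315, -0.195 and -1.713 in PGC-1αf/f and -0.211, 0.114 and -1.491 in mPGC-1α. On both, replicate 3 of each group fell well below the other arrays while the brightest probe did not. A_55_P2500448, on NM_001289739, had a level of -1.156, -0.783 and -2.213 in PGC-1αf/f and -1.205, -0.678 and -2.113 in mPGC-1α. A_66_P122989 had -1.219, -1.368 and -2.587 in PGC-1αf/f and -1.403, -1.287 and -2.178 in mPGC-1α. This last probe was designed on the same accession as the brightest one, so the accession did not separate the patterns. Between groups the 4 probes had log2 fold changes of 0.05 to 0.21 with SE of 0.41 to 0.55 and adjusted p of 0.861 to 0.963 by limma.

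The gap between the higher of the 2 replicate 3 arrays and the lowest of the other 4 was 0.775 to 1.28 log2 units on these 4 probes. Of 22997 probes with values on all arrays, 1432 (6.23%) had both replicate 3 arrays below the others, but 4 (0.0174%) by at least 1 log2 unit, and 2 of those 4 were Bcl2l1 probes. The 2 replicate 3 arrays lay in different slide columns, 4 and 3, and in different slide rows. The mean level of erythroid markers, 6 of 8 on the array, was -1.91 on PGC-1αf/f replicate 3 and 1.02 on mPGC-1α replicate 3. That of leukocyte markers was -2.02 and 1.28 on these 2 arrays. What sets the 2 replicate 3 arrays apart on these Bcl2l1 probes was not tested. The pattern was found after the values had been seen. Each probe's estimate of the group difference rests on a replicate spread of up to 0.844 in PGC-1αf/f and 0.947 in mPGC-1α (SD, n = 3) on these probes, against 0.160 and 0.107 on the brightest.

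**Figure D2:**
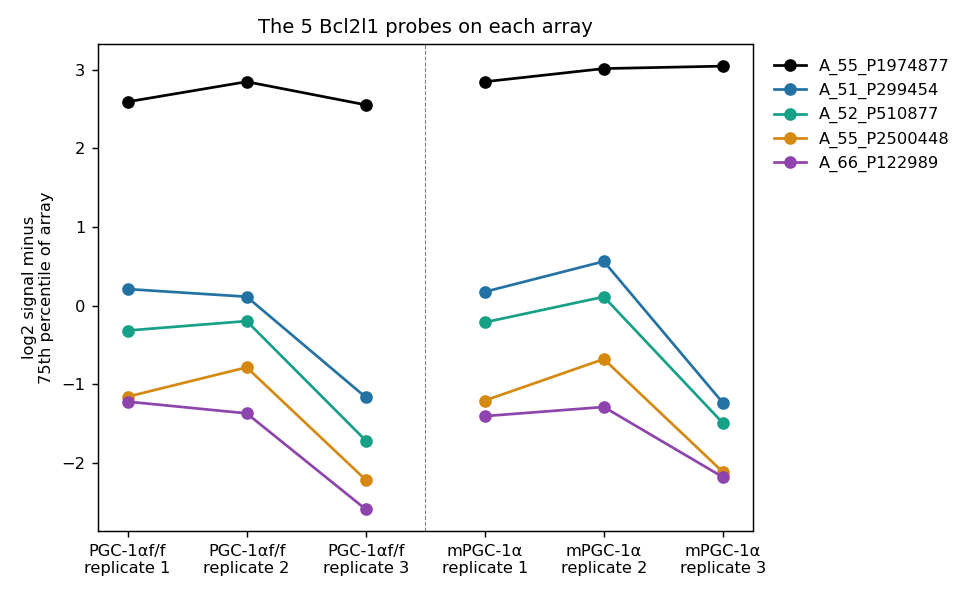
The 5 Bcl2l1 probes on each array (y axis, log2 signal relative to the 75th percentile; x axis, arrays by group and replicate; a line joins the arrays of a group for 1 probe). The brightest probe is level across arrays, and the other 4 drop on replicate 3 of both groups, the higher of these 2 arrays lying 0.775 to 1.28 log2 units below the lowest of the remaining arrays.

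The remaining guardians showed smaller estimates. Mcl1, a short-lived anti-apoptotic protein (chromosome 3, 95656944 to 95663179), had a level of 3.779 and 3.45 in PGC-1αf/f and 3.713, 3.597 and 3.919 in mPGC-1α. PGC-1αf/f replicate 2 was dropped as an outlier spot, and the 2 remaining values enclosed 2 of the 3 mPGC-1α values. By limma the log2 fold change was 0.13 (SE 0.19, 95% confidence interval -0.33 to 0.58, adjusted p = 0.748). With the dropped spot kept it was 0.12. Bcl2l2, which encodes BCL-w (chromosome 14, 54883366 to 54890858), had a level of -0.062, -0.098 and 0.04 in PGC-1αf/f and -0.086, -0.191 and 0.073 in mPGC-1α, within a narrow band in both groups. Its log2 fold change was -0.028 (SE 0.13, 95% confidence interval -0.34 to 0.29, adjusted p = 0.930 by limma).

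Bak1, the effector whose product forms pores in the outer membrane (chromosome 17, 27019812 to 27028627), had a level of 2.075, 2.198 and 2.138 in PGC-1αf/f and 2.092, 2.435 and 2.478 in mPGC-1α. mPGC-1α replicates 2 and 3 were above every PGC-1αf/f array and replicate 1 was not. Its log2 fold change was 0.20 (SE 0.15, 95% confidence interval -0.16 to 0.55, adjusted p = 0.517 by limma).

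Bcl2l11, the gene of the BH3-only activator BIM (chromosome 2, 128126038 to 128162547), was the member whose probes pointed different ways. The brightest of its 4 probes, on NM_207680, had a level of 0.891, 0.815 and 1.059 in PGC-1αf/f and 0.454, 0.771 and 0.712 in mPGC-1α. All mPGC-1α arrays were below all PGC-1αf/f arrays, and within slide columns 1 and 2 the differences were -0.437 and -0.044. The log2 fold change was -0.28 (SE 0.15, 95% confidence interval -0.63 to 0.07, adjusted p = 0.376 by limma). A dimmer probe on NM_001284410, A_55_P2504051, had -2.158, -2.044 and -1.888 in PGC-1αf/f and -1.742, -1.611 and -1.888 in mPGC-1α. Here mPGC-1α replicates 1 and 2 were above every PGC-1αf/f array, the replicate 3 arrays had the same level, and the log2 fold change was 0.28 (SE 0.14, adjusted p = 0.358 by limma). The other tested probe, A_51_P484880 on NM_207680, had a log2 fold change of 0.027 (SE 0.24, adjusted p = 0.963 by limma), and the last was not above background on any array.

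The difference between the brightest Bcl2l11 probe and the mean of the other 2 tested ones was 3.478, 3.17 and 3.268 log2 units in PGC-1αf/f and 2.903, 2.898 and 2.823 in mPGC-1α. It was smaller in every mPGC-1α array by 0.431 on average. The exact two-sided permutation test over samples gave p = 0.1, the smallest it can give with 3 against 3, and 0.3 after adjustment over the 3 genes with several tested probes. For Bcl2 the same difference moved by 0.11 (exact permutation p = 0.9) and for Bcl2l1 by 0.185 (exact permutation p = 0.6), with overlapping groups. Averaged over its tested probes, Bcl2l11 had a log2 fold change of 0.011.

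Bad, whose product binds BCL2 and BCL-xL when it is not phosphorylated (chromosome 19, 6941861 to 6951905), had a level of 1.77, 1.74 and 1.429 in PGC-1αf/f and 1.807, 1.874 and 2.139 in mPGC-1α. All mPGC-1α arrays were above all PGC-1αf/f arrays, but the nearest pair was 1.77 and 1.807, and PGC-1αf/f replicate 3 was the lowest array and mPGC-1α replicate 3 the highest. Within slide columns 1 and 2, which held an array of each group, the differences were 0.038 and 0.133. Over all arrays limma gave a log2 fold change of 0.29 (SE 0.16, 95% confidence interval -0.089 to 0.68, adjusted p = 0.385), and 0.185 without PGC-1αf/f replicate 3.

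Bid, which caspase-8 cleaves to link death receptors to mitochondria (chromosome 6, 120893119 to 120917062), had a level of 1.296, 1.304 and 1.476 in PGC-1αf/f and 1.336, 1.444 and 1.487 in mPGC-1α, with a log2 fold change of 0.06 (SE 0.13, 95% confidence interval -0.24 to 0.37, adjusted p = 0.824 by limma). Bmf, a BH3-only gene tied to the cytoskeleton (chromosome 2, 118528757 to 118549686), had a level of 1.98, 1.984 and 2.099 in PGC-1αf/f and 1.951, 1.81 and 2.227 in mPGC-1α. Its log2 fold change was -0.025 (SE 0.15, 95% confidence interval -0.38 to 0.33, adjusted p = 0.946 by limma), and a second Bmf probe was not above background on any array. Bik, a BH3-only gene of the endoplasmic reticulum (chromosome 15, 83526790 to 83544635), was well above background on 2 of 3 arrays in each group. Its level was -3.47, -3.005 and -2.847 in PGC-1αf/f and -3.828, -3.277 and -3.16 in mPGC-1α, overlapping between groups. It was below the filter for the test, and a mean of -3.11 stood against -3.42. Without the filter on dim probes its adjusted p was 0.973 by limma.

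**Figure D3:**
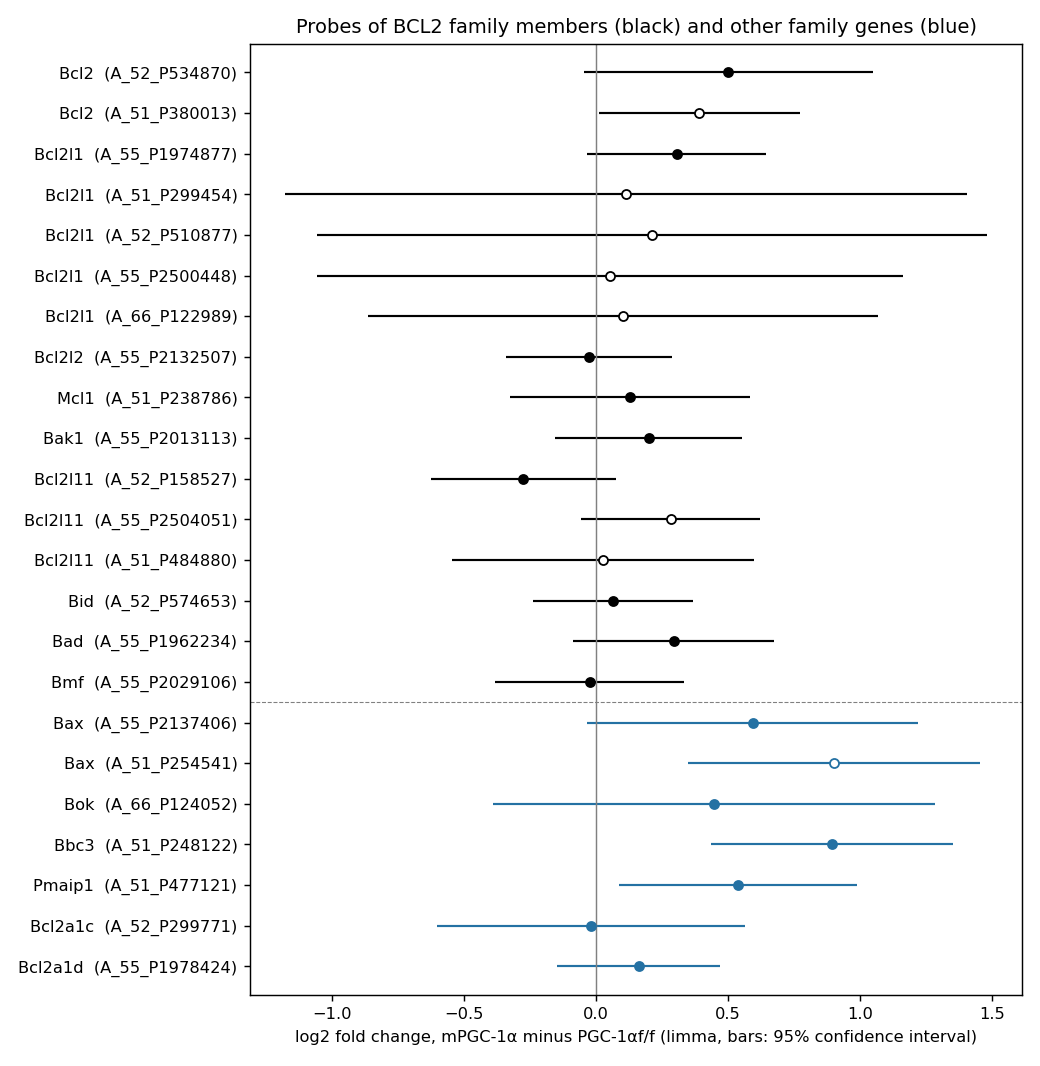
Log2 fold change of each tested probe (x axis, mPGC-1α minus PGC-1αf/f, limma; bars are 95% confidence intervals), for the members in black above the dashed line and for other family genes in blue below it. Filled points are the probe that stands for the gene and open points its other probes. Every member interval except that of the second Bcl2 probe (0.010 to 0.77) includes 0, and those of Bbc3, Pmaip1 and the dimmer Bax probe do not.

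The relatives of the 10 members came from a list of 65 further family and apoptosis genes, of which 53 had a value on all arrays. At the adjusted threshold 0 of them were called. At an unadjusted p under 0.05 by limma 4 were higher (Bbc3, Endog, Pim1 and Pmaip1) and 3 lower (Foxo1, Mapk8 and Usp9x), and the median log2 fold change of the 53 was 0.03. These counts were near the background shares of 8.16% and 5.71% given above. Foxo3 and Usp9x were above background on 2 of 3 PGC-1αf/f arrays. Among the 51 relatives above background on all arrays the median was also 0.03. The groups did not overlap in the higher direction for 6 of them and in the lower for 4. Of all 11565 genes above background on all arrays, 1277 and 1275 did not overlap in these directions. Of the 19 other BCL2 family genes, 12 were measured, with a median of 0.13. Of these 12, 9 were above 0, beside 6650 of 12302 over all genes. Of the 9, 2 had an unadjusted p under 0.05 by limma. The naming of Foxo1, Foxo3 and Usp9x was decided after their values had been seen.

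Bbc3, whose product PUMA is a BH3-only activator and a p53 target, was among the relatives higher at an unadjusted p under 0.05 by limma. Its level was 0.867, 0.516 and 0.793 in PGC-1αf/f and 1.569, 1.346 and 1.946 in mPGC-1α, with every mPGC-1α array above every PGC-1αf/f array. Its log2 fold change was 0.90 (SE 0.19, 95% confidence interval 0.44 to 1.35), with an unadjusted p of 0.00245 and an adjusted p of 0.135 by limma. Pmaip1 (NOXA, which acts mainly against MCL1) had -0.661, -0.523 and -0.728 in PGC-1αf/f and -0.437, -0.082 and 0.221 in mPGC-1α. Again the groups did not overlap, and the log2 fold change was 0.54 (SE 0.19, unadjusted p = 0.0256, adjusted p = 0.252 by limma).

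Bax, the effector that shares its task with Bak1, had 2 probes with positive estimates. The brighter had a level of 2.296, 1.693 and 1.864 in PGC-1αf/f and 2.171, 2.423 and 3.038 in mPGC-1α, where PGC-1αf/f replicate 1 overlapped the mPGC-1α group (log2 fold change 0.59, SE 0.26, adjusted p = 0.317 by limma). The dimmer had -0.117, -0.887 and -0.648 in PGC-1αf/f and 0.159, 0.269 and 0.624 in mPGC-1α, which did not overlap (log2 fold change 0.90, SE 0.23, adjusted p = 0.173 by limma). Within slide column 1 the brighter probe was lower in mPGC-1α by -0.125, and within column 2 it was higher by 0.731. Without mPGC-1α replicate 3 its estimate was 0.35. Bok, a further effector-like gene, had a log2 fold change of 0.45 (SE 0.35, adjusted p = 0.536 by limma), which was 0.096 without mPGC-1α replicate 1, 0.78 without mPGC-1α replicate 2, 0.26 without PGC-1αf/f replicate 3 and 0.011 with gene-by-gene and -0.17 with REML array weights. For Bcl2a1, the A1 guardian of leukocytes, probes of Bcl2a1d and Bcl2a1c had 0.16 and -0.019 (0.102 and 0.22 without PGC-1αf/f replicate 3). Over the 19 alternatives Bcl2a1d ranged from 0.029 to 0.24 and Bcl2a1c from -0.23 to 0.22. These paralogs are so alike that the copy read is uncertain.

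**Figure D4:**
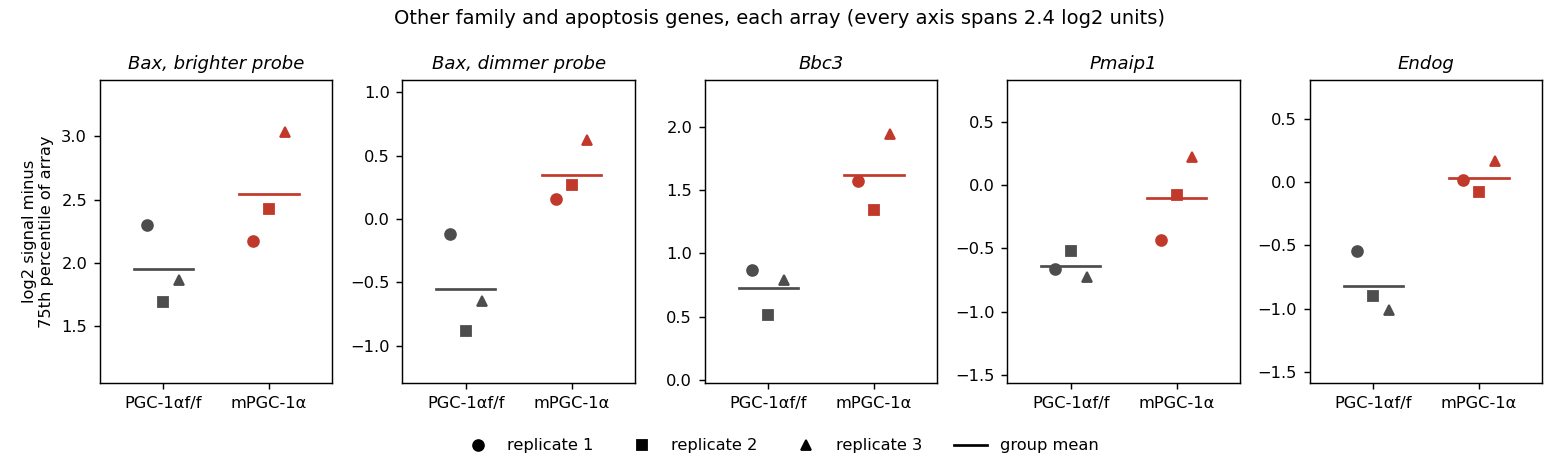
Level on each array (y axis, log2 signal relative to the 75th percentile; every axis spans the same range) of both Bax probes, Bbc3, Pmaip1 and Endog. Grey symbols are PGC-1αf/f and red symbols mPGC-1α, with the shape giving the replicate and the line the group mean. The groups do not overlap except for the brighter Bax probe, and no adjusted p passed 0.05.

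Downstream of the outer membrane, Endog, the mitochondrial nuclease endonuclease G, had a level of -0.543, -0.902 and -1.007 in PGC-1αf/f and 0.02, -0.079 and 0.167 in mPGC-1α. The groups were clearly apart, with a log2 fold change of 0.85 (SE 0.17, unadjusted p = 0.00137, adjusted p = 0.121 by limma). It was the highest of 12 measured genes of the apoptosome and caspases, whose median was -0.050 and whose lowest was Casp2 at -0.21 (-0.14 without PGC-1αf/f replicate 3). Among the 6 caspase inhibitors Birc5 (survivin, a gene of dividing cells) had the highest estimate at 1.21 (SE 0.66, adjusted p = 0.381 by limma) and Birc2 the lowest at -0.28, which was -0.087 without PGC-1αf/f replicate 3, where Birc6 at -0.37 was lower. The level of Birc5 on PGC-1αf/f replicate 3, -1.144, was far below 0.716 and 1.614 on replicates 1 and 2, as it was for leukocyte markers, whose part in it was not tested. Without that array the Birc5 estimate was 0.44, without PGC-1αf/f replicate 2 it was 1.82, and with gene-by-gene array weights 0.46. Slc25a4 and Vdac2 were the highest and lowest of the 4 measured channel partners, at 0.44 and -0.007. Slc25a4 was at 0.72 without PGC-1αf/f replicate 1 and at 0.23 without replicate 3. As a mean over its probes it was at 0.104. Its other probe had no value on PGC-1αf/f replicate 1 and mPGC-1α replicates 1 and 2. That mean therefore mixes different probes between arrays, and nothing is drawn from it. The sign of Vdac2 changed with the array left out (-0.14 to 0.072). Bnip1 and Bcl2l12 were the highest and lowest of the BH3-like genes, at 0.22 and -0.22, with Bnip1 at 0.062 without mPGC-1α replicate 3 and Bcl2l12 at -0.14 without PGC-1αf/f replicate 3.

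Among 19 measured regulators of the family, Pim1, a kinase that phosphorylates BAD, had the highest estimate. Its level was 0.7, 1.88 and 0.651 in PGC-1αf/f and 1.815, 1.946 and 2.278 in mPGC-1α, where 1 PGC-1αf/f array was within the mPGC-1α range (log2 fold change 0.94, SE 0.34, adjusted p = 0.260 by limma). With gene-by-gene array weights it was 0.41. Mapk8 (JNK1, which phosphorylates BIM and BMF) was the lowest of those above background on all arrays, with 0.41, 0.203 and 0.361 in PGC-1αf/f and -0.115, -0.191 and -0.028 in mPGC-1α. On this probe the groups did not overlap (log2 fold change -0.44, SE 0.13, unadjusted p = 0.0122, adjusted p = 0.209 by limma). A second, dimmer Mapk8 probe had -0.642, -0.814 and -0.404 in PGC-1αf/f and -1.136, -0.988 and -0.767 in mPGC-1α. There the groups overlapped (log2 fold change -0.34, SE 0.17, adjusted p = 0.3455 by limma). Foxo1, a transcription factor restrained by growth factor signalling, had 1.695, 1.758 and 1.807 in PGC-1αf/f and 1.486, 1.461 and 1.212 in mPGC-1α (log2 fold change -0.37, SE 0.14, adjusted p = 0.263 by limma). Its relative Foxo3, dim and past the filter through mPGC-1α alone, had a level of -3.29, -3.542 and -3.627 in PGC-1αf/f and -3.255, -3.188 and -2.742 in mPGC-1α, and nothing is drawn from it. Usp9x, the deubiquitinase that stabilises MCL1, had -0.52 (SE 0.20, adjusted p = 0.273 by limma) and was above background on 2 of 3 PGC-1αf/f arrays.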

How the data were processed

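Total RNA of P2RY12-selected microglia was amplified, labelled with Cy5 and hybridised by the authors to 1-colour Agilent mouse arrays, 3 per group. The deposited scanner files give, for each spot, the processed intensity from Feature Extraction 11.5.1.1, after background subtraction and spatial detrending, with flags for outliers and for spots well above background. GeneSpring 13 is named in the submitters' processing notes for normalization, and no per-gene test is stated. The deposited series-wide values served as an alternative.

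Control spots and outlier spots were left out. From the log2 intensity the 75th percentile of the array, over 59305 spots, was subtracted, and spots of a probe were averaged. Probes well above background (at least 0.5 of their spots) on all arrays of 1 group or both were tested, 25333 of 56605, of which 25257 had a p-value. Symbols came from transcript accessions in a RefSeq table (GRCm38.p6), which matched 33767 probes. A gene is represented by its brightest probe (mean over arrays) that has values on all arrays. limma 3.58.1 (lmFit, eBayes, two-sided) in R 4.3.3 with the package data.table (version 1.17.8) was used, after a test on simulated data. Figures used Python 3.11.15, matplotlib 3.10.9, pandas 2.3.3 and numpy 2.4.6. The number of arrays limits the precision.

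The members and gene lists were chosen with earlier results of these data known. Named were all members with every probe, the core relatives Bax, Bok, Bbc3, Pmaip1 and the Bcl2a1 genes, any other list gene past the threshold, and the highest and lowest log2 fold change in each list among genes above background on all 6 arrays. Alternatives covered normalization, background, filters, weights, blocks, probe choice and left-out arrays. Keeping outlier spots and array weights by REML were added after seeing the data, and array weights otherwise used limma's gene-by-gene method. Same-numbered samples had deviation correlations of 0.139, 0.127 and 0.019, so the numbers were not taken as pairs. The replicate 1 arrays of both groups shared slide column 1, however, and the replicate 2 arrays column 2. With slide column as a random block, limma estimated a correlation of 0.349 within columns. That fit called 138 of 25257 probes, against 20 in the main fit.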

Additional observations from a re-analysis of the deposited data

How the results depend on the processing

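Array weights were fitted gene by gene after weights by REML had not converged, and the REML fit is given as a further alternative added after seeing the data. In the other 18 alternatives 0 members passed an adjusted p of 0.05 (9 tested, 10 without the filter, where Bik had an adjusted p of 0.973), and the lowest was 0.113, for Bcl2 under gene-by-gene weights. With REML weights 1 member passed, Bcl2 (0.56, adjusted p 0.0314), as did 7 relatives, and 3494 of 25257 probes were called. Bcl2, Bcl2l1, Bak1 and Bad stayed positive in all 19, but Bak1 went from 0.20 to 0.066, Bcl2l1 from 0.30 to 0.17 and Bad from 0.29 to 0.16 under the median shift, and Bcl2l1 to 0.157 as a mean over probes. Some estimates turned: Mcl1 was -0.026 under a median shift and -0.048 under normexp with quantile normalization and -0.005 with REML weights, Bid was -0.070 under the median shift, and Bcl2l11, at -0.28 on its brightest probe, was 0.011 as a mean over its probes. The median shift moved the median over all probes to -0.14, and 4 of the 9 members were above 0, in place of 6. Mcl1 and Bid, which turned, still lay above that median, as did Bcl2, Bcl2l1, Bak1 and Bad. Relative to all probes no member changed side under this shift. Leaving out 1 array gave ranges of -0.037 to 0.29 for Mcl1, -0.099 to 0.034 for Bcl2l2 and -0.14 to 0.068 for Bmf. Mcl1 turned without PGC-1αf/f replicate 3, and Bcl2l2 and Bmf turned without that array or without mPGC-1α replicate 2. Without changing sign, Bid ranged from 0.031 (without mPGC-1α replicate 3) to 0.122 (without PGC-1αf/f replicate 3), Bak1 from 0.127 (without mPGC-1α replicate 3) to 0.32 (without mPGC-1α replicate 1), Bcl2l11 from -0.34 (without mPGC-1α replicate 2) to -0.18 (without mPGC-1α replicate 1), Bcl2 from 0.306 to 0.72 (PGC-1αf/f replicate 3 left out for the lower value, replicate 1 for the higher) and Bad from 0.185 (without PGC-1αf/f replicate 3) to 0.36 (without mPGC-1α replicate 1). The causes were not tested.

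At an unadjusted p under 0.05 the count of members, 0, became 1 with the replicate block, slide column as a random block, the mean over probes, array weights of either kind and a robust eBayes with trend, and 0 to 1 when 1 array was left out (1 without PGC-1αf/f replicate 1). That member was Bcl2, or Bcl2l1 under the robust eBayes. The replicate block left the lowest adjusted p of a member at 0.218 and called 0 of 25257 probes. Of the relatives, 7 passed that level, 3 with the deposited value table without normalization, 15 with REML weights, and 3 to 9 when 1 array was left out. Gene-by-gene weights took the relatives past the adjusted threshold from 0 to 2, Bbc3 and Endog, and the probes called overall from 20 to 754. The estimate for Bbc3 was 0.73 to 1.03 in the 19 alternatives, with an adjusted p of 0.0109 to 0.676.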
